A study of Homo sapiens with 6 samples.

Results

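Krüppel-like factors are transcription factors that bind GC-rich and CACCC-type DNA through a cluster of zinc fingers at their C-terminal end, while their N-terminal parts differ and recruit activators or repressors. In the liver they take part in injury responses, glucose and amino acid metabolism and the control of growth, and several of them are induced within hours by growth factors, TGF-beta or glucocorticoids. The 9 genes KLF3, KLF4, KLF5, KLF6, KLF9, KLF10, KLF11, KLF13 and KLF15 were chosen by name, and 8 of them were found by symbol among 16305 genes. KLF15 was not analysed here. RNA was sequenced from Huh7-R cells (labelled Huh7SR), a pool of the human hepatocellular carcinoma line Huh7 selected for resistance by long exposure to sorafenib. There were 3 samples treated with fostamatinib, an inhibitor of the spleen tyrosine kinase, and 3 treated with the solvent DMSO. The authors did not detect the protein of this kinase in Huh7 cells. In immunoblots of parental and resistant Huh7 cells they reported less phosphorylated ERK, AKT, STAT3, EGFR and JNK under the drug. Those cells had a higher dose for a shorter time than the samples here. All 6 samples share the resistance of the pool, and the labels give 2 µM and 24 h for every sample, DMSO included. The comparison asks how the expression of these factors in resistant cells differed under the drug. The treatments were applied in triplicate, and whether these were independent cultures is not stated. The p-values therefore rest on the spread of these samples, which may be technical.

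The deposited values are log2 CPM, that is, reads relative to the scaled total of each library (CPM). They were turned back into whole reads, of which each sample held 13303451 to 15272737 on the listed genes. The 8 factors had 131 to 2542 reads in any sample. Genes were called changed where limma gave an adjusted p-value below 0.05 over all genes. The 8 hepatocyte markers were present in every sample, with ALB at 8568 to 11313 reads. APOA1 had 20 to 23 reads in DMSO and 185 to 194 after fostamatinib. All 8 markers were called higher after fostamatinib, as were 23.3% of all genes. Their summed level was 4417 to 4748 CPM in DMSO and 5896 to 6220 CPM after the drug. Of 9 markers of leukocytes, endothelium and stroma, 4 were tested (PECAM1, COL1A1, COL3A1 and PDGFRB). These summed to 14.9 to 16.2 CPM in DMSO and 20.7 to 22.1 CPM after fostamatinib, and PECAM1 and PDGFRB rose. The other 5, among them PTPRC, were not analysed here. The part of either marker group in the results on the Krüppel-like factors was not tested.

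Promoter sequences of 7 of the 9 genes were matched in RefSeq by symbol (build GRCh38.p14), and KLF3 and KLF10 were not matched. The windows of KLF4, which had the largest fall, and of KLF13, which had the smallest, are shown with that of their relative KLF2, which rose, so that these promoters can be read beside their values. They were picked after the values were seen. Each runs 5′ to 3′ over the 250 bases before the transcription start. Capitals mark the GC box, GGGCGG read on either strand, which is of the kind this family binds, and in KLF2 also the MEF2 consensus.
KLF4, chr9:107489770-107490019, minus strand: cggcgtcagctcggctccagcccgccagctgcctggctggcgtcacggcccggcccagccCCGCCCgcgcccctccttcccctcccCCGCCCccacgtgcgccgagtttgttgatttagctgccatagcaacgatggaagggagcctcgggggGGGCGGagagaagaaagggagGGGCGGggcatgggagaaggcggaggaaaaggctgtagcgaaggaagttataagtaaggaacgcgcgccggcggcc
KLF13, chr15:31326585-31326834, plus strand: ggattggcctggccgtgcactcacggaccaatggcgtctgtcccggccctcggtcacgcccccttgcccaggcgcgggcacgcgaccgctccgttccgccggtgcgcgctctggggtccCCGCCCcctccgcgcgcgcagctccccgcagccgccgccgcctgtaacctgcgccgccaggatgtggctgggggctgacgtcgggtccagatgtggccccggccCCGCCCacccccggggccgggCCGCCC
KLF2, chr19:16324576-16324825, plus strand: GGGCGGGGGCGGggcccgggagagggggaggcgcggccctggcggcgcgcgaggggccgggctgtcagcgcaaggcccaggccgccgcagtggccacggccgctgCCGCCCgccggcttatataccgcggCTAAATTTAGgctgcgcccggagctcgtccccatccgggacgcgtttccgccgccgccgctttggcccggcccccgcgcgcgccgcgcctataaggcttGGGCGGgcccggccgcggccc

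The GC box occurred 4 times in the KLF4 window, 3 times in that of KLF13 and 4 times in that of KLF2, overlapping matches counted. It occurred 2 times in the KLF6 window, and 2 and 6 times in the windows of the 2 KLF11 starts. The 2 KLF5 windows held 0 and 2, the KLF9 window held 0 and the KLF15 window held 6. Of 34788 different windows of this length upstream of RefSeq starts, 42.6% held at least 1 GC box. The sequence CACCC, the other kind that the family binds, occurred in both KLF5 windows, in 1 of the 2 KLF11 windows and in that of KLF13, and in 54.7% of all windows. The E-box CACGTG occurred once each in the windows of KLF4, KLF6 and KLF15 and in 1 of the 2 KLF11 windows, and in 6.31% of all windows. The MEF2 consensus occurred in the KLF2 window, with its first base at -120 from the start, in 1 of the 4 windows of KLF12, which was not called, and in 2.82% of all windows. The windows of the 7 matched genes held no match to it. The motifs were chosen with earlier results known, and a match is a description of the sequence.

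Of the 8 Krüppel-like factors, 5 fell after fostamatinib (KLF4, KLF11, KLF6, KLF10 and KLF13), 0 rose, and 3 were not called (KLF9, KLF3 and KLF5). The background was high. Among all genes 47.8% were called in either direction, 24.5% lower and 23.3% higher. In the same 5 factors the groups did not overlap, as in 54.1% of all genes, 27.4% with fostamatinib lower. The share of factors called in either direction was 62.5%, and all of these calls were in 1 direction. No factor passed both this threshold and a 2-fold change, which 7.13% of all genes did. The median log2 fold change of the 8 factors was -0.26, against 0.0015 over all genes. The list itself was not tested, and 8 genes give a coarse share. Because whole cultures were sequenced, fewer cells expressing a gene and less RNA per cell cannot be told apart.

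**Figure D1:**
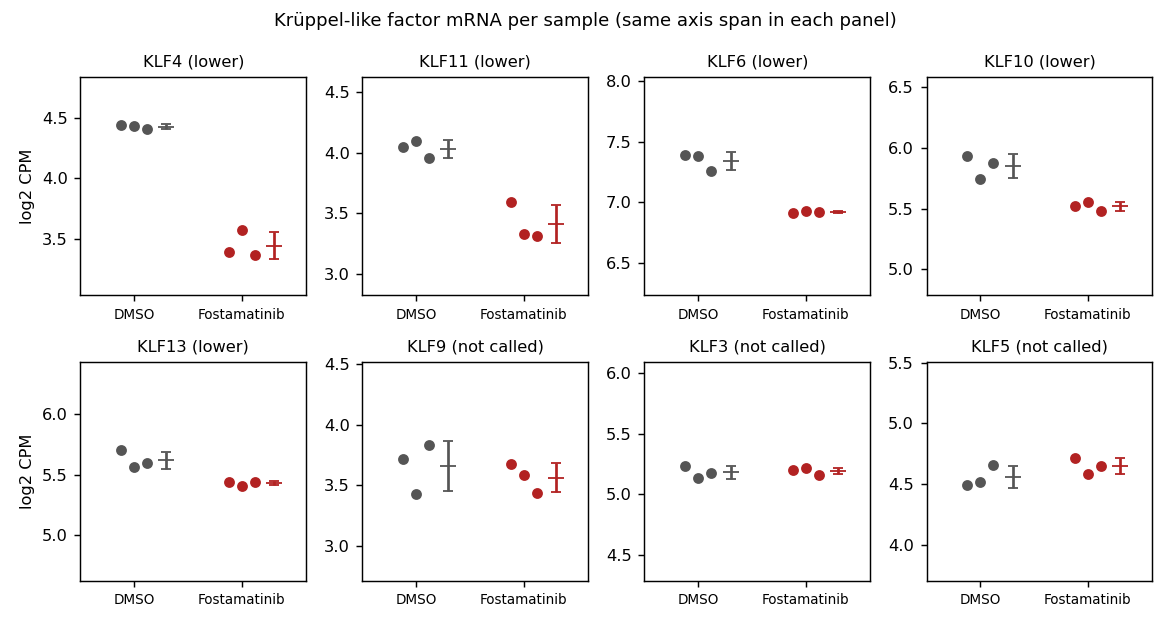
Log2 CPM of the 8 Krüppel-like factors in each of the 6 samples (points), with the mean and SD of each group beside them (bar and whiskers, n = 3), on axes of equal span. The mean of KLF4 is 4.42 in DMSO and 3.44 after fostamatinib, that of KLF13 is 5.62 and 5.43, and that of KLF3 is 5.18 and 5.19.

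KLF4, KLF5 and KLF6 belong to the branch of the family that mostly activates transcription. KLF4, a factor of epithelial differentiation and of reprogramming to pluripotency, had the largest change of the 8. The gene (ENSG00000136826) lies on human chromosome 9 (GRCh37), positions 110247133 to 110252763, minus strand. It had 299, 328 and 314 reads with DMSO and 144, 169 and 136 reads after fostamatinib. All 3 treated samples were low, the replicates of each group lay close together, and the groups did not overlap. The level fell from 4.42 ± 0.019 log2 CPM (SD, n = 3) to 3.44 ± 0.11 log2 CPM (SD, n = 3). The log2 fold change was -0.98 (standard error 0.092, 95% interval -1.17 to -0.79, adjusted p = 3.94e-11 by limma), so that the level fell by 49.3%. Of all genes, 9.30% had a larger absolute change. In an exact permutation test of 3 samples against 3 the two-sided p was 0.1, the smallest that this design can give, and the same value held for each of the 5 factors that fell.

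KLF6, a widely expressed factor that is induced in injured liver and has been studied as a tumour suppressor in liver cancer, was the most abundant of the 8. The gene (ENSG00000067082) lies on human chromosome 10 (GRCh37), positions 3818188 to 3827473, minus strand. It had 2310, 2542 and 2276 reads with DMSO and 1660, 1738 and 1600 reads after fostamatinib. The treated samples were again all lower, and they were almost identical once scaled. The level fell from 7.34 ± 0.073 log2 CPM (SD, n = 3) to 6.92 ± 0.0084 log2 CPM (SD, n = 3), a log2 fold change of -0.42 (95% interval -0.51 to -0.33, adjusted p = 6.58e-10 by limma), so that it fell by 25.4%. The interval of KLF6 did not reach that of KLF4. The counts are per gene, and the splice forms of KLF6 were not separated.

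KLF5, which drives proliferation in gut and other epithelia and often acts against KLF4 there, was not called. It had 310, 349 and 375 reads with DMSO and 360, 340 and 331 reads after fostamatinib. The groups overlapped, and the log2 fold change was 0.09 (95% interval -0.07 to 0.24, adjusted p = 0.362 by limma). The interval leaves room for changes between a decrease to 0.954 times and an increase to 1.18 times the DMSO level. The difference between KLF4 and KLF5 was not tested.

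KLF9, KLF10, KLF11 and KLF13 share a repressor domain that binds the Sin3 corepressor. KLF10 and KLF11 are known as TGF-beta-inducible early genes, and both restrain growth in epithelial cells. KLF11 (ENSG00000172059), on human chromosome 2 (GRCh37), positions 10182976 to 10194963, plus strand, had 227, 261 and 230 reads with DMSO and 166, 143 and 131 reads after fostamatinib. Treated samples were all lower, with fostamatinib replicate 1 nearest to the DMSO samples. The level fell from 4.03 ± 0.073 log2 CPM (SD, n = 3) to 3.41 ± 0.16 log2 CPM (SD, n = 3), and the log2 fold change was -0.62 (95% interval -0.83 to -0.41, adjusted p = 3.68e-06 by limma), so that it fell by 34.9%.

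KLF10 (ENSG00000155090), on human chromosome 8 (GRCh37), positions 103661012 to 103667953, minus strand, had 841, 817 and 872 reads with DMSO and 632, 668 and 591 reads after fostamatinib. The groups did not overlap. The level fell from 5.85 ± 0.097 log2 CPM (SD, n = 3) to 5.52 ± 0.036 log2 CPM (SD, n = 3), a log2 fold change of -0.33 (95% interval -0.45 to -0.21, adjusted p = 1.47e-05 by limma), so that it fell by 20.6%. KLF10 and KLF11 moved the same way. Their intervals overlapped only slightly, and the difference between them was not tested.

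KLF13, known as an activator of the chemokine gene CCL5 in T cells, had the smallest of the 5 falls. The gene (ENSG00000169926) lies on human chromosome 15 (GRCh37), positions 31619038 to 31727868, plus strand. It had 716, 722 and 718 reads with DMSO and 598, 606 and 574 reads after fostamatinib. The log2 fold change was -0.19 (95% interval -0.31 to -0.07, adjusted p = 0.00825 by limma), so that it fell by 12.3%. The call rested on DMSO replicate 1, the highest sample once scaled. Without it the log2 fold change was -0.15 and the adjusted p-value was 0.0756.

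KLF9, a gene induced by glucocorticoids and thyroid hormone, had 181, 164 and 211 reads with DMSO and 175, 170 and 143 reads after fostamatinib. The DMSO samples were the most scattered of any factor, at 3.66 ± 0.21 log2 CPM (SD, n = 3), and the groups overlapped. The log2 fold change was -0.10 (95% interval -0.32 to 0.13, adjusted p = 0.494 by limma), an interval that leaves room for a level between 0.802 and 1.09 times that in DMSO. It was -0.21 without DMSO replicate 2 and -0.011 without DMSO replicate 3. KLF3, a repressor that acts through the corepressor CtBP, had 517, 534 and 537 reads with DMSO and 505, 529 and 474 reads after fostamatinib. Its log2 fold change was 0.01 (95% interval -0.12 to 0.14, adjusted p = 0.884 by limma). Of all genes, 97.1% had a larger absolute change than KLF3.

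**Figure D2:**
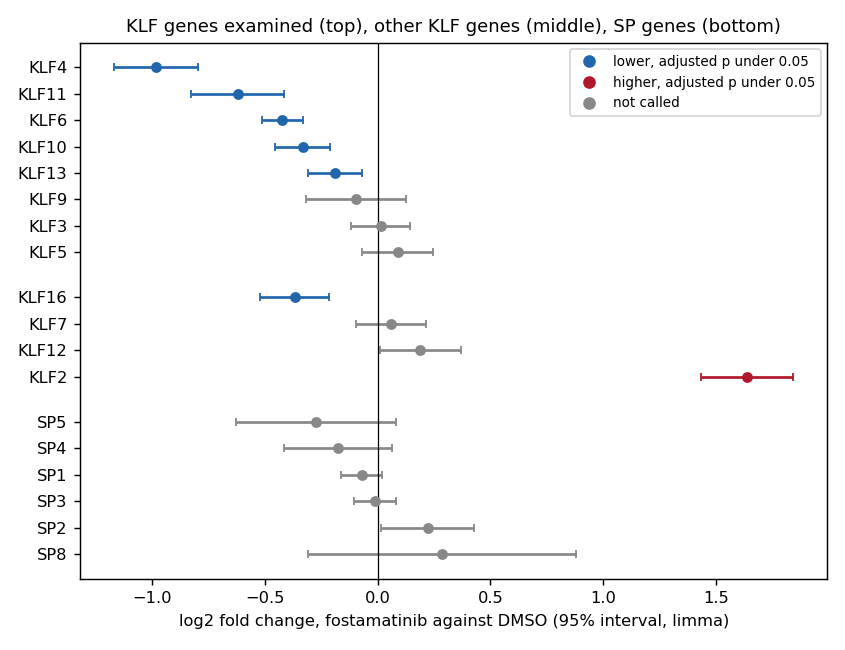
Log2 fold change (fostamatinib against DMSO) with its 95% interval from limma for the 8 Krüppel-like factors examined, 4 other KLF genes and 6 SP genes. The intervals of KLF4, KLF11, KLF6, KLF10, KLF13 and KLF16 lie below 0, KLF2 was the only one called higher, at 1.64, and no SP gene was called.

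The rest of the family was described from a list of 9 other KLF genes, of which 4 were tested. KLF2, best known for keeping endothelial cells and T cells quiescent, rose. It had 101, 105 and 98 reads with DMSO and 314, 296 and 283 reads after fostamatinib. Treated samples were all high and the groups lay far apart. The log2 fold change was 1.64 (95% interval 1.43 to 1.84, adjusted p = 6.32e-16 by limma), or 3.11-fold (95% interval 2.70 to 3.59). Its change was larger than that of any of the 8 factors, and 2.82% of all genes had a larger one. KLF16, another Sin3-binding repressor, fell by 22.5% (log2 fold change -0.37, adjusted p = 9.58e-05 by limma). KLF7 (0.06, adjusted p = 0.548) and KLF12, a CtBP-binding repressor (0.19, adjusted p = 0.0728), were not called in the same test. Without fostamatinib replicate 1, KLF12 was called, at 0.27 on the log2 scale (adjusted p = 0.0205 by limma).

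Set out by binding partner, an arrangement made with the values known, 4 of the 5 tested Sin3-binding factors fell (KLF10, KLF11, KLF13 and KLF16, but not KLF9), with a median log2 fold change of -0.33, where 24.5% of all genes were called lower. One of these calls, that of KLF13, was lost without DMSO replicate 1. Of the 5 factors of the activating branch, 2 fell (KLF4 and KLF6), 1 rose (KLF2) and 2 were not called (KLF5 and KLF7). Neither of the 2 CtBP-binding factors, KLF3 and KLF12, was called. The related SP factors, which bind the same GC boxes, gave 0 calls among 6 genes tested by limma, and 1 of the 6 had an unadjusted p-value under 0.05. Precision weights from voom on the recovered reads also gave 0 calls. Of all genes, 47.8% were called in either direction, and 8688 of 16305 had an unadjusted p-value under 0.05. SP8, with 15 to 28 reads, and SP5, with 45 to 67 reads, had wide 95% intervals (-0.31 to 0.88 and -0.63 to 0.08). SP1, with 1853 to 2217 reads, had a log2 fold change of -0.07 (95% interval -0.16 to 0.02), and SP3 had -0.01 (95% interval -0.11 to 0.08). The groups of SP2 did not overlap. Without fostamatinib replicate 2, SP2 was called, at 0.29 on the log2 scale (adjusted p = 0.0399 by limma).

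Levels of different genes were compared per length, as reads per kilobase of merged exon scaled by depth (RPKM). In DMSO the order of the 12 tested KLF genes was KLF6 at 26.5 ± 1.31 RPKM (SD, n = 3), KLF10 at 15.1 ± 1.0 RPKM and KLF16 at 11.3 ± 0.965 RPKM, followed at a distance by KLF5 at 6.40, KLF4 at 5.85, KLF3 at 5.35 and KLF13 at 5.22 RPKM. KLF11 at 3.56, KLF7 at 3.01, KLF2 at 2.46, KLF9 at 2.44 and KLF12 at 1.5 RPKM closed the order. The samples of KLF3 and KLF13 overlapped, as did those of KLF2 and KLF9, and all other neighbours in this order were apart in their 3 samples. This spread leaves out any error in the exon lengths, on which the order between genes also rests. After fostamatinib the first 3 places were the same, at 19.7 ± 0.116 RPKM for KLF6, 12 ± 0.298 RPKM for KLF10 and 8.71 ± 0.576 RPKM for KLF16 (SD, n = 3). KLF2 moved from place 10 to place 4, at 7.68 ± 0.376 RPKM, and KLF4 from place 5 to place 9, at 2.97 ± 0.237 RPKM (SD, n = 3). There KLF4 overlapped with KLF7, and KLF11 overlapped with KLF9.

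**Figure D3:**
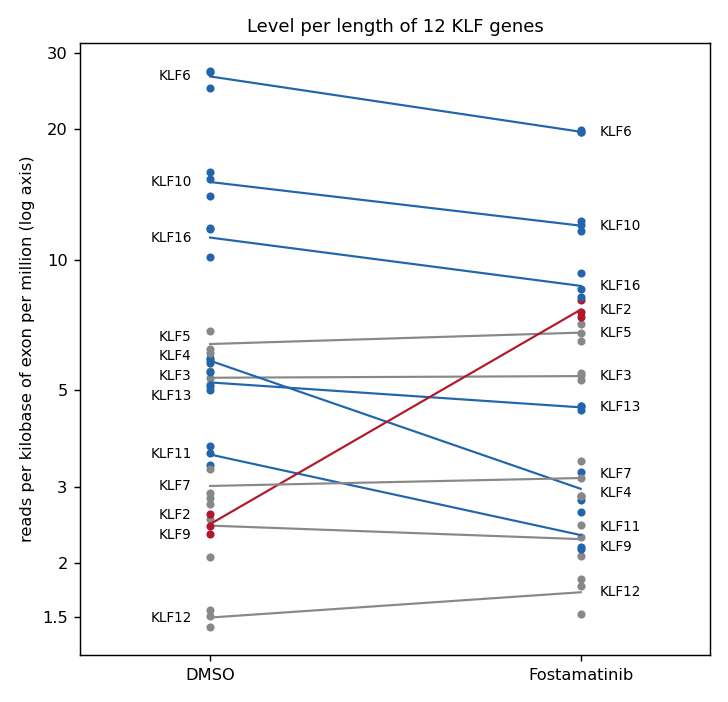
Level per length (reads per kilobase of merged exon scaled by depth, log axis) of 12 KLF genes in the 3 DMSO and 3 fostamatinib samples (points), with lines between the group means, blue for genes called lower, red for higher and grey for not called. KLF6 leads in both groups, and the lines of KLF4 (5.85 to 2.97) and KLF2 (2.46 to 7.68) cross.

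Summed over the 8 factors, the level per length was 70.4 ± 1.81 RPKM in DMSO and 56.0 ± 0.895 RPKM after fostamatinib (SD, n = 3), and the groups did not overlap. KLF6 held 37.6% ± 1.66 of it in DMSO and 35.2% ± 0.554 after fostamatinib (SD, n = 3), with shares above those of every other factor and groups that did not overlap. KLF10 held 21.5% ± 1.1 and 21.4% ± 0.337 (SD, n = 3). KLF4 went from 8.32% ± 0.154 to 5.29% ± 0.396, and KLF5, whose own level was not called, from 9.10% ± 0.724 to 12.1% ± 0.541 (SD, n = 3).

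KLF4 and KLF2 have overlapping roles in endothelial cells and moved in opposite directions, and this pair was set side by side after their values were seen. The ratio of KLF4 to KLF2 per length, taken within each sample and so free of the scaling between samples, was 2.28, 2.41 and 2.47 in the DMSO samples. It was 0.353, 0.440 and 0.370 after fostamatinib. KLF4 was thus the more abundant of the pair in every DMSO sample and the less abundant in every treated sample. On the log2 scale the ratio was 1.25 ± 0.058 in DMSO and -1.37 ± 0.17 after fostamatinib (SD, n = 3), a difference of -2.63. An exact permutation test of the ratio could only give its smallest two-sided p, 0.1, because both genes had already separated the groups. It therefore adds nothing to the values of the 2 genes.

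Genes connected with this family are given as lists, with the same test. Of 11 immediate-early genes, which like KLF4, KLF6 and KLF10 are induced early after growth factor stimulation, 10 were tested, 6 fell and 0 rose, with a median log2 fold change of -0.64. This was 60% called lower, against 24.5% of all genes, and the list was not tested. The largest falls were those of IER3 (-1.78), FOS (-1.44), ATF3 (-1.28) and JUNB (-0.68), each with an adjusted p-value of at most 7.24e-07 by limma. EGR1, the best-known gene of this kind, had 37 to 43 reads in DMSO and 27 to 38 reads after fostamatinib and was not called (-0.13, adjusted p = 0.645 by limma).

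Of 10 genes of TGF-beta signalling, the input of KLF10 and KLF11, 6 fell and 1 rose, with a median of -0.29. This was 70% called in either direction and 60% called lower, against 47.8% and 24.5% of all genes, and the list was not tested. TGFB2, a ligand, fell from 1556, 1607 and 1741 reads to 628, 563 and 532 reads (log2 fold change -1.42, adjusted p = 6.78e-21 by limma). The ligand TGFB3 (-1.03, with 19 to 72 reads) and the signal transducer SMAD3 (-0.44) fell too. The 6 falls also include those of SKIL (-0.34) and SMAD7 (-0.29), which inhibit this signalling. The receptor TGFBR2 rose by 0.19 on the log2 scale (adjusted p = 2.75e-05 by limma), and the ligand TGFB1 was not called (-0.10, adjusted p = 0.0870). Without DMSO replicate 3 or fostamatinib replicate 3, TGFB1 was called lower (adjusted p = 0.0104 and 0.0186 by limma).

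Of 7 genes of the glucocorticoid axis, an input of KLF9 and KLF15, 6 were tested, 3 rose and 2 fell. This was 83.3% called in either direction and 33.3% called lower, against 47.8% and 24.5% of all genes. With 6 genes the share is coarse, and the list was not tested. The receptor NR3C1 rose from 1097, 1145 and 1206 reads to 1532, 1657 and 1502 reads (log2 fold change 0.53, adjusted p = 1.77e-11 by limma). Among the genes that the receptor activates, TSC22D3 (1.23) and PER1 (0.76) rose, while SGK1 (-1.70) and FKBP5 (-1.01) fell. These targets did not share a direction, and KLF9, itself a target, was not called.

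Of 5 genes of the ERK5 and MEF2 route, through which KLF2 and KLF4 are induced, MEF2D rose by 0.48 on the log2 scale (adjusted p = 1.50e-09 by limma) and MEF2A fell by 0.19 (adjusted p = 0.00136). MEF2C was called lower at -0.84, but with 7 to 34 reads, overlapping groups and an adjusted p-value of 0.0488 that rose to between 0.202 and 0.291 without DMSO replicate 2, DMSO replicate 3 or fostamatinib replicate 3. The kinases MAPK7 (-0.12, adjusted p = 0.183) and MAP2K5 (-0.09, adjusted p = 0.430) were not called by limma.

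**Figure D4:**
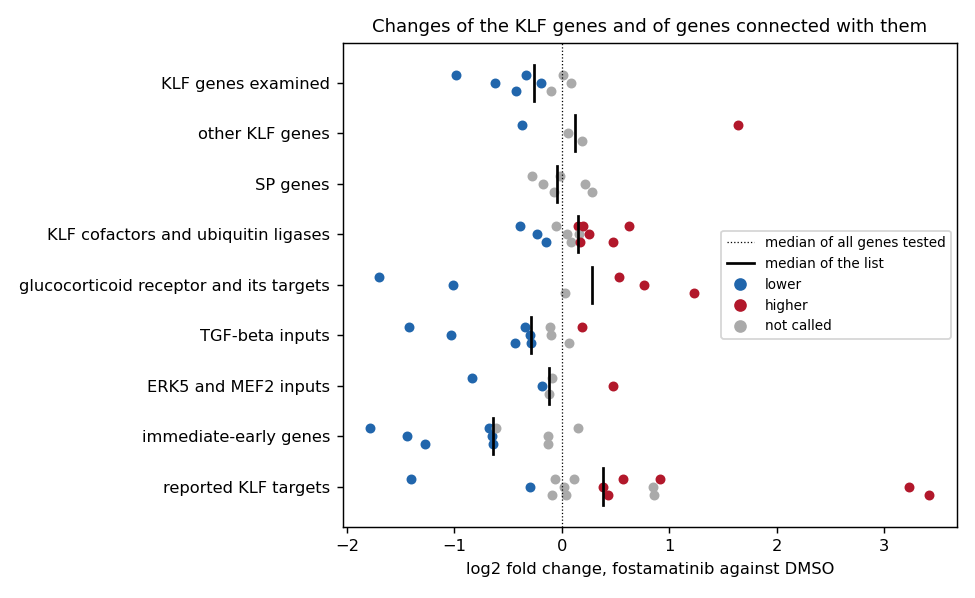
Log2 fold change (fostamatinib against DMSO) of each tested gene in the lists, blue for called lower, red for called higher and grey for not called, with the median of each list as a bar and the median of all genes as a dotted line. The 8 Krüppel-like factors examined and the immediate-early genes hold falls and no rises, with medians of -0.26 and -0.64. The other KLF genes hold 1 rise (KLF2, at 1.64) and 1 fall (KLF16), and the reported targets hold 6 rises and 2 falls. DIO1, with 1 read in DMSO over 3 samples, is drawn at its fitted value.

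Of 14 cofactors and ubiquitin ligases of the family, 13 were tested, 6 rose and 3 fell, with a median of 0.16. The shares over all genes were 23.3% higher and 24.5% lower. The coactivating acetyltransferases KAT2B (0.62) and EP300 (0.20) rose. FBXW7, the ubiquitin ligase subunit that marks KLF5 for degradation, rose from 355, 426 and 461 reads to 565, 558 and 495 reads (log2 fold change 0.48, adjusted p = 8.06e-07 by limma). The Sin3 complex did not move 1 way. Its deacetylase HDAC1 rose (0.25, adjusted p = 1.78e-06 by limma), whereas SAP30 (-0.39), the deacetylase HDAC2 (-0.23) and SIN3B (-0.14) fell, and the scaffold SIN3A was not called (-0.05, adjusted p = 0.373 by limma). The call of SIN3B was lost without DMSO replicate 1 (adjusted p = 0.104) and without fostamatinib replicate 2 (adjusted p = 0.129). CTBP1, the partner of KLF3, named here after its value was seen, rose by 0.16 on the log2 scale (adjusted p = 0.00209 by limma).

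Of 20 genes reported elsewhere as targets of single family members, 15 were tested, 6 rose and 2 fell, with a median of 0.38, against 23.3% of all genes called higher and 24.5% lower. Without DMSO replicate 3 the counts were 7 higher and 4 lower. TAT, with 7 to 26 reads, was then called higher, and CDKN1A and BCAT2 were called lower. Where at least 5 reads in 2 of 3 samples of both groups were required, 13 genes were left, 5 higher and 2 lower. CCND1, the cyclin that KLF4 represses and KLF5 activates, fell from 2843, 2980 and 3078 reads to 1116, 1044 and 1011 reads (log2 fold change -1.40, adjusted p = 2.35e-23 by limma). SMAD7, which KLF10 and KLF11 repress, fell by 0.29 on the log2 scale (adjusted p = 0.000212). It is also counted among the genes of TGF-beta signalling above. CDKN1A, the cell cycle inhibitor activated by KLF4 and KLF6, was not called (-0.09, adjusted p = 0.340 by limma), and was called lower without DMSO replicate 3 (adjusted p = 0.0308). Also not called was LGALS3, a gene repressed by KLF3 (0.04, adjusted p = 0.566). CYP1A1, on which KLF9 has been described as a repressor, rose from 365, 392 and 376 reads to 3410, 3375 and 3265 reads. PPARGC1A (0.92), a coactivator of liver energy metabolism, and ACSS2 (0.57), an acetyl-CoA synthetase, rose. DIO1 had 1, 0 and 0 reads in DMSO and 3, 10 and 10 reads after fostamatinib, and was called higher.

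Genes with the profile most like that of a factor were found by the root mean square difference of the centred log2 CPM over the 6 samples, as a description. For KLF4, with the largest fall, they were MYO18B (0.0416), NOP16 (0.050) and NOC3L (0.0527 on the log2 scale), with log2 fold changes of -0.99, -0.99 and -1.02. For KLF5, which had the highest log2 fold change of the 8 (0.09) but was not called, they were CDC42 (0.0192), ZMYM2 (0.0207) and FAM126A (0.0233), none of them called.

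In the annotation, KLF3, KLF4 and KLF11 overlap an annotated gene on the opposite strand, and a pseudogene lies within KLF13 on the same strand. KLF3 and KLF4 also have processed pseudogenes elsewhere. The library kit keeps the strand, but whether the counting used it is not given in the sources used here. Reads from these overlapping genes could then not be told apart from those of the factors.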

How the data were processed

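HISAT (alignment to hg19) and featureCounts (reads per gene, GENCODE annotation) were the tools of the authors, who dropped genes below 5 reads in at least 2 of 3 samples of each group and applied TMM scaling. What the authors deposited is log2 CPM with 0.5 added to each count, 1 sample per file. Undoing these steps gave whole reads for 100% of values, within a tolerance of 0.05 reads.

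Linear models were fitted to the deposited log2 CPM of 16305 genes with limma 3.58.1 in R 4.3.3 (lmFit, eBayes with a mean-variance trend), with Benjamini-Hochberg adjustment over all genes. Python 3.11.15 (with pandas 2.3.3, scipy 1.17.1 and numpy 2.4.6) was used for the tables. The fit was also run on simulated counts in which 200 of 16305 genes changed, far fewer than the 7794 called here. At a simulated log2 change of 1 it recovered 99.5% of them, and 2.45% of its calls were false. The moderated test pools the spread of all genes (median of 33.9 total against 4 residual degrees of freedom), on which very small p-values rest. Lengths and coordinates are from GRCh37 (the build of hg19) with GENCODE version 44 mapped to it, while the authors counted on an older version.

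The genes examined and the lists were chosen with earlier results of these data known. Named are all 9 Krüppel-like factors and, of each list, up to 4 rises and 4 falls past the threshold, further members by role, and the 3 genes with the profile most like that of the factors with the highest and the lowest log2 fold change (the highest, KLF5, was not called; at least 50 reads in the higher group). Alternatives were voom weights on the recovered reads, no trend, 2 other scalings, 2 added to each count, 2 stricter filters, a replicate block, each sample left out and a threshold of 1 expected false positive. The replicate numbers are shared between groups in the labels.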

Additional observations from a re-analysis of the deposited data

How the results depend on the processing

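The falls of KLF4, KLF11, KLF6 and KLF10 and the rise of KLF2 kept their direction and their call in all 15 alternatives, with log2 fold changes of -1.05 to -0.94, -0.71 to -0.57, -0.46 to -0.40, -0.39 to -0.29 and 1.6 to 1.68. Their adjusted p-values by limma reached at most 0.0127, for KLF10. KLF13 kept its direction (-0.22 to -0.15) but not its call in 2 of the 15, the omission of DMSO replicate 1 (adjusted p = 0.0756) and a threshold of 1 expected false positive. KLF5 (0.055 to 0.14) and KLF9 (-0.21 to -0.011) were not called in any alternative, but their values moved by over 1.5 times when 1 sample was left out. The ends of these ranges came without fostamatinib replicate 1 and DMSO replicate 3 for KLF5, and without DMSO replicates 2 and 3 for KLF9. KLF3, near 0, lay between -0.0114 and 0.0389 when each sample was left out in turn, the negative value being that without DMSO replicate 2.

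With the threshold of 1 expected false positive, 4136 of 16305 genes were called (25.4%, against 7794), and 4 of the 8 Krüppel-like factors. That threshold also left 4 of the cofactors and ubiquitin ligases (9 before) and 1 gene of the ERK5 and MEF2 route (3 before). With each sample left out in turn, 6958 to 7480 genes were called, and the count of called SP genes was 0 to 1. The median log2 fold change of all genes lay between -0.0096 and 0.0052 under every scaling.

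A fit with replicate number as a block called 7977 genes, and the calls of the 8 factors were the same. Same-numbered samples, each centred on the mean of its group, correlated by -0.0443 to 0.0408 over 11485 genes, so the numbers were not taken to pair the samples. Dropping the filter could not be tried, because the authors had filtered these values before depositing them. With 3 samples per group an exact permutation test cannot go below 0.1.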
